A study of Homo sapiens with 6 samples.

Results

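The 44 genes described here encode parts of the Wnt signalling pathway: 14 ligands, 14 receptors and co-receptors, 3 secreted antagonists, 4 nuclear factors and 9 feedback or target genes. They were taken as the rows of the deposited count table whose symbol equals a listed name, and all 44 were found among the 60623 genes kept. RNA was sequenced from cells labelled PANC-1, an established human cell line from a pancreatic ductal carcinoma, to compare cells given a short hairpin RNA against STN1 (shSTN1, genotype label STN1 knockdown in 1 library) with cells given a control hairpin (shControl, genotype label WT), with 3 libraries in each group. The genotype field of the other two shSTN1 libraries names STN2 and STN3, and the titles were used for grouping. The labels call the 6 libraries biological replicates of cells kept in DMEM with serum, and they do not say whether a line is 1 clone or a pool, so a p-value here weighs a difference against the library-to-library spread, part of which may be technical.

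Wnt ligands are lipid-modified secreted proteins that bind Frizzled receptors together with the co-receptors LRP5 and LRP6. In the beta-catenin branch, binding stops a cytoplasmic complex of APC, AXIN and GSK3 from marking beta-catenin for degradation, and beta-catenin then joins LEF1 and TCF factors on DNA to switch on targets, several of which feed back on the pathway. Other ligands, with WNT5A as the best studied, also act through ROR receptors and the planar polarity proteins, and in pancreatic cancer cells the pathway is known for its links to growth and to the RNF43 and ZNRF3 receptor-removing ligases.

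Counted reads ran from 18813591 to 23336942 in shSTN1 libraries and from 17357223 to 20660453 in shControl libraries. STN1 itself, a subunit of the telomere-binding CST complex, had 303, 306 and 275 reads in the libraries labelled shSTN1, against 387, 346 and 278 in shControl libraries. That was 14.8 ± 0.793 CPM in shSTN1 and 16.4 ± 1.95 CPM in shControl (CPM are reads scaled to library size with TMM factors, SD, n = 3 each), or 90.3% of shControl, with a log2 fold change of -0.15 (SE 0.105, edgeR adjusted p = 0.253, limma-voom 95% interval -0.38 to 0.09). An exact two-sided permutation test returned p = 0.3 (the smallest possible with 3 and 3 libraries is 0.1). The targeted transcript thus did not separate the labels, and every direction given here is that of the libraries labelled shSTN1 over those labelled shControl. CDKN2A, which PANC-1 is described as lacking, had 0 reads over the shSTN1 libraries and 11753 over the shControl libraries, so the shControl libraries go against their PANC-1 label. Pancreatic ductal carcinoma markers summed to between 6113 and 6298 CPM in shSTN1 libraries and between 1061 and 1108 CPM in shControl libraries, and all 10 of the 13 that were tested were higher. Embryonic kidney markers summed to between 103 and 110 CPM in shSTN1 libraries (SALL1 and GDNF at 0) and between 502 and 586 CPM in shControl libraries, with 2 of the 10 tested of 12 higher and 6 lower. Among them IRS4 had 0, 3 and 0 reads in shSTN1 libraries, against 6578, 8457 and 5470 in shControl libraries, and SIX2 had 9, 3 and 8 reads in shSTN1 libraries, against 1036, 1064 and 948 in shControl libraries. IRS4 alone gave 317, 378 and 296 CPM of the kidney sums in shControl libraries. The 2 higher kidney markers were PAX2 (2.58-fold) and OSR1 (7.45-fold). WT1 (log2 fold change -0.01) and LHX1 (0.27) did not pass. Fibroblast markers summed to between 170 and 183 CPM in shSTN1 libraries (DCN at 0) and between 73.7 and 89.2 CPM in shControl libraries, with 3 of the 4 tested of 8 higher. Beside these marker counts, 35.6% of all genes tested were higher and 38.5% lower in shSTN1 (edgeR adjusted p under 0.05). Endothelial markers summed to between 4.77 and 6.18 CPM in shSTN1 libraries and between 1.46 and 3.09 CPM in shControl libraries (PECAM1 at 0 in both), and leukocyte markers to between 1.59 and 1.81 CPM in shSTN1 libraries and between 4.44 and 5.46 CPM in shControl libraries (CD3E at 0 in both, PTPRC at 0 in shControl). The groups may therefore be different cell lines, although both carry the same label. Every fold change given here is a difference between these sets of libraries, in which a difference between lines and an effect of the hairpin cannot be told apart. In bulk RNA, fewer cells that express a gene and less of its RNA per cell cannot be told apart either.

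Of the 44 genes, 42 passed the low-count filter and were tested in a fit over 17451 genes. An edgeR adjusted p under 0.05 was reached by 35 of the 42, or 83.3%, beside a background of 74.1% of all genes tested. Of these, 14 were higher in shSTN1 (background 35.6%) and 21 lower (background 38.5%). A change of at least 2-fold was also met by 24 of the 42 (57.1%, background 34.6%). It was upward in 7 (16.7%, background 15.7%) and downward in 17 (40.5%, background 19.0%). In 34 of the 42 the 3 shSTN1 libraries did not overlap the 3 shControl libraries, where 75.6% of all genes tested did not overlap. The median log2 fold change was -0.38 over the 42 and -0.03 over all genes tested. Because 7 of the 42 were not above the filter level of 0.497 CPM in every library of both groups, the counts were also taken over the 35 that were. There 12 were higher and 16 lower. All 7 left out were among the 24 changed at least 2-fold: WNT3A, FZD10, LGR5, NKD1 and APCDD1 downward, WNT4 and SP5 upward. The 2-fold shares were not taken again over the 35, so the 40.5% downward rests in part on genes near no signal in shSTN1. Of all 14278 genes above that level in both groups, 38.2% were higher, 36.2% lower and 74.4% called either way.

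**Figure D1:**
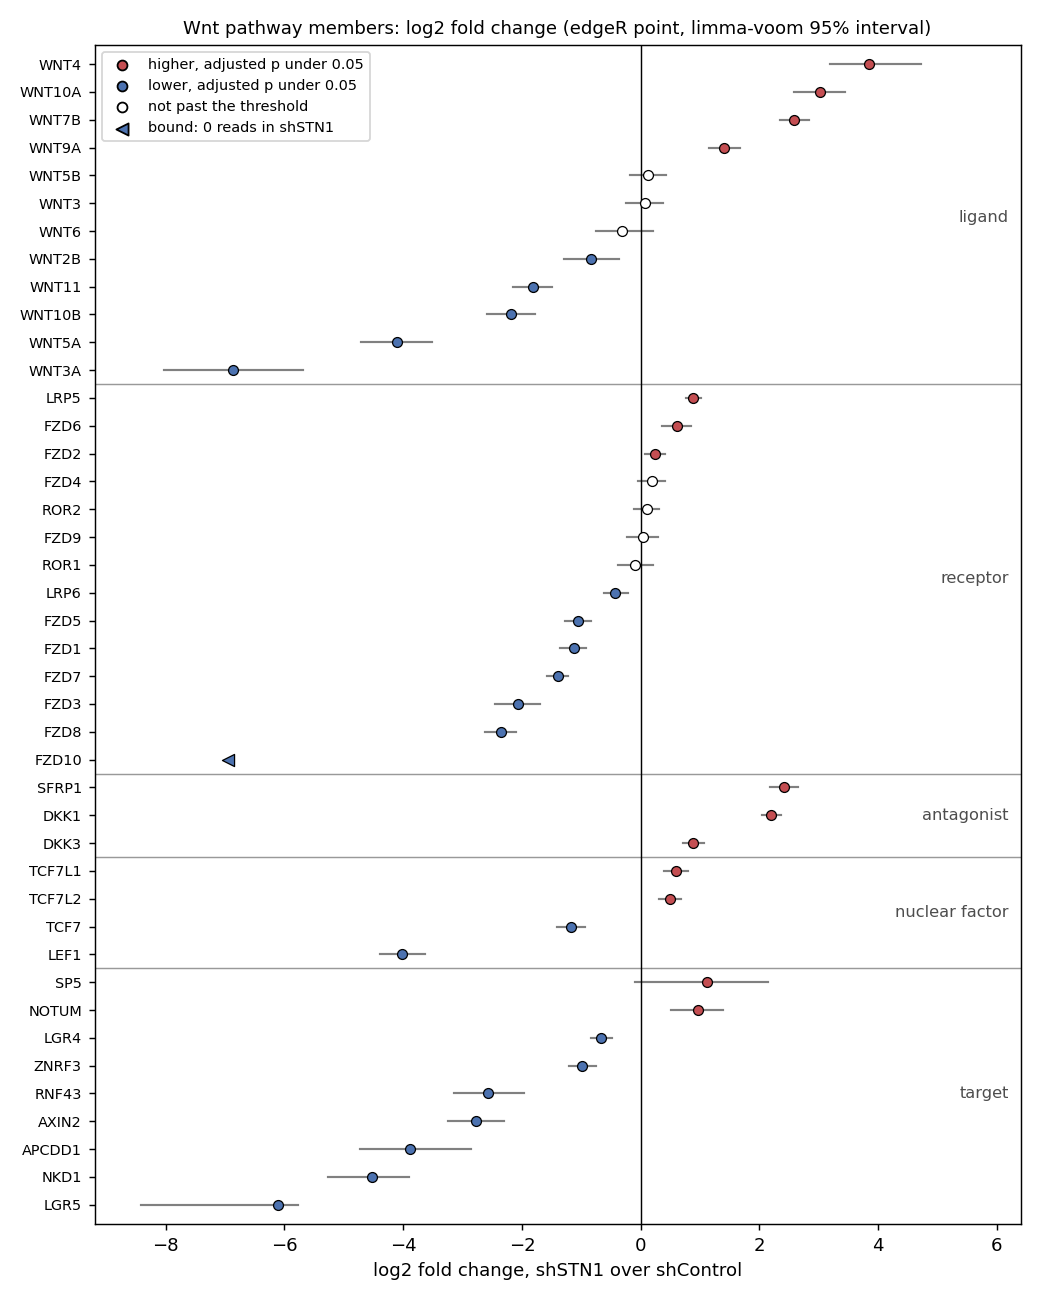
Log2 fold change of shSTN1 over shControl for the 42 tested Wnt genes, by role (filled points past the adjusted p threshold, open points not, bars limma-voom 95% intervals, triangle a bound for FZD10 with 0 reads in shSTN1). The 3 antagonists lie right of 0 and 7 of the 9 targets left of it, while ligands and receptors lie on both sides.

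Promoters are shown for 4 of the genes: DKK1 and SP5, both called higher (SP5 with overlapping libraries), are the 2 matched genes with a TCF-type motif, and WNT3A and WNT9A are chromosomal neighbours with opposite changes. RefSeq windows (GRCh38.p14) were matched for 28 of the 44 genes, and the 250 bases before each start were searched on both strands for CTTTGAT and CTTTGAA, the core letters that LEF1 and TCF factors are known to bind. Of 35116 promoters, 2.26% held the first, 3.80% the second and 5.94% either. Of the 35 promoters of the matched genes, 2 held either (5.71%), which is near the share of all promoters. DKK1 is at chr10:52314031-52314280 on the plus strand, SP5 at chr2:170715087-170715336 on the plus strand, WNT3A at chr1:228006748-228006997 on the plus strand and WNT9A at chr1:227947933-227948182 on the minus strand, each written 5′ to 3′ with matches in capitals (TTCAAAG is CTTTGAA read on the other strand).
DKK1: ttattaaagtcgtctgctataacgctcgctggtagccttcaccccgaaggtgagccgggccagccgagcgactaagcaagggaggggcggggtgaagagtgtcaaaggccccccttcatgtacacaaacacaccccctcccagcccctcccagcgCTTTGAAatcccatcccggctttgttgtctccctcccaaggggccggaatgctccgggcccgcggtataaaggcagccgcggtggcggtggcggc
SP5: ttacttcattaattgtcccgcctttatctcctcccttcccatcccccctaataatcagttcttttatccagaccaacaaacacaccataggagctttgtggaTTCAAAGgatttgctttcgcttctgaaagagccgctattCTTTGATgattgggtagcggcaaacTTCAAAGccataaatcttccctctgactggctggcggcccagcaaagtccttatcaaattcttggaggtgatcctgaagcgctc
WNT3A: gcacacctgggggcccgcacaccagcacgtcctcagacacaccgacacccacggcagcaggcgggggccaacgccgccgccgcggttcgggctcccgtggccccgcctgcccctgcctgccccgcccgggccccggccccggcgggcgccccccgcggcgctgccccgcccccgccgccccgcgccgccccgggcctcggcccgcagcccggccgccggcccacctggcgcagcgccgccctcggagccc
WNT9A: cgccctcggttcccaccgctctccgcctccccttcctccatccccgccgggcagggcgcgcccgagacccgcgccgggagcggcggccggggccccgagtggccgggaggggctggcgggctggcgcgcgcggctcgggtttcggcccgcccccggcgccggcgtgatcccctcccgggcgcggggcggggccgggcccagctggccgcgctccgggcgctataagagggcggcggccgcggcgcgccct
The DKK1 window held CTTTGAA 95 bases before the start. The SP5 window held TTCAAAG 148 and 84 bases before the start and CTTTGAT 109 bases before it. A match is a run of letters, and the data include no measure of binding there.

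The ligands moved in both directions: 4 of the 12 tested were higher in shSTN1, 5 lower and 3 did not pass. The share passing, 75.0%, is near the 74.1% of all genes tested. WNT7B, WNT10A, WNT4 and WNT9A made up the higher set, and WNT3A, WNT5A, WNT10B, WNT11 and WNT2B the lower set. WNT3A (ENSG00000154342.6, chr1:228007051-228061260, plus strand), a classic activator of the beta-catenin branch, had 2, 2 and 0 reads in shSTN1 libraries, against 199, 170 and 155 reads in shControl libraries. Its level was 0.0631 ± 0.0547 CPM in shSTN1 and 8.53 ± 0.992 CPM in shControl (log2 fold change -6.87, SE 0.337, edgeR adjusted p = 1.01e-17). The shSTN1 libraries were close to no signal, and the fitted level was 117-fold lower than in shControl. WNT5A, the main ligand of the beta-catenin-independent branch, had 0.977, 0.870 and 1.42 CPM in shSTN1 libraries, against 16.7, 22.5 and 16.5 CPM in shControl libraries. It fell by 4.11 on the log2 scale (SE 0.243, adjusted p = 6.36e-19), and the groups did not overlap.

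WNT10B, a ligand known in stem cells and adipose tissue, had 3.71, 2.79 and 2.84 CPM in shSTN1 libraries, against 16.3, 11.7 and 15.0 CPM in shControl libraries. The 4.57-fold lower level (log2 fold change -2.19, SE 0.192, adjusted p = 1.41e-13) left a clear gap between the groups. WNT11, known from morphogenetic movements and kidney branching, had 5.66, 4.67 and 3.80 CPM in shSTN1 libraries, against 17.7, 14.8 and 17.7 CPM in shControl libraries (log2 fold change -1.82, SE 0.184, adjusted p = 8.95e-13). WNT2B was the smallest of the falls, at 2.42 ± 0.324 CPM in shSTN1 and 4.30 ± 0.781 CPM in shControl (log2 fold change -0.84, SE 0.192, adjusted p = 8.32e-04).

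WNT7B (ENSG00000188064.10, chr22:45920362-45977129, minus strand), a ligand described in pancreatic adenocarcinoma cells, had 50.8, 52.7 and 49.7 CPM in shSTN1 libraries, against 7.80, 7.92 and 10.0 CPM in shControl libraries. It was 5.98-fold higher (log2 fold change 2.58, SE 0.119, adjusted p = 2.01e-20), with the lowest shSTN1 library far above the highest shControl library. WNT10A, known from tooth and skin appendage development, had 15.7, 14.3 and 18.1 CPM in shSTN1 libraries, against 2.21, 1.70 and 2.00 CPM in shControl libraries (log2 fold change 3.02, SE 0.144, adjusted p = 4.43e-17). WNT4, known from kidney tubule and ovary development, had 12.3, 12.9 and 8.11 CPM in shSTN1 libraries, against 0.866, 0.358 and 1.14 CPM in shControl libraries. Its log2 fold change of 3.85 (SE 0.480, adjusted p = 3.57e-15) was the highest among the ligands tested, and its libraries were also the most spread of the 4 that rose. WNT9A had 26.3, 22.8 and 24.9 CPM in shSTN1 libraries, against 7.70, 8.99 and 11.5 CPM in shControl libraries (log2 fold change 1.40, SE 0.179, adjusted p = 1.18e-11).

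For 3 ligands the test found no difference beyond the spread. WNT5B had 10.2, 8.48 and 7.72 CPM in shSTN1 libraries, against 7.65, 7.70 and 9.05 CPM in shControl libraries (log2 fold change 0.12, adjusted p = 0.467, interval -0.18 to 0.42). WNT3 had 8.79, 7.19 and 6.98 CPM in shSTN1 libraries, against 7.70, 7.25 and 6.94 CPM in shControl libraries (0.07, adjusted p = 0.683, interval -0.24 to 0.37). WNT6 averaged 2.89 ± 0.284 CPM in shSTN1 and 3.64 ± 0.982 CPM in shControl (-0.32, adjusted p = 0.197, interval -0.75 to 0.21). In each of the 3 the libraries of both groups overlapped. WNT7A, with 5, 0 and 2 reads in shSTN1 libraries and 0 in each shControl library, was too low to test. WNT16, with 4, 12 and 6 reads in shSTN1 libraries and 15, 4 and 1 in shControl libraries, was too low as well.

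**Figure D2:**
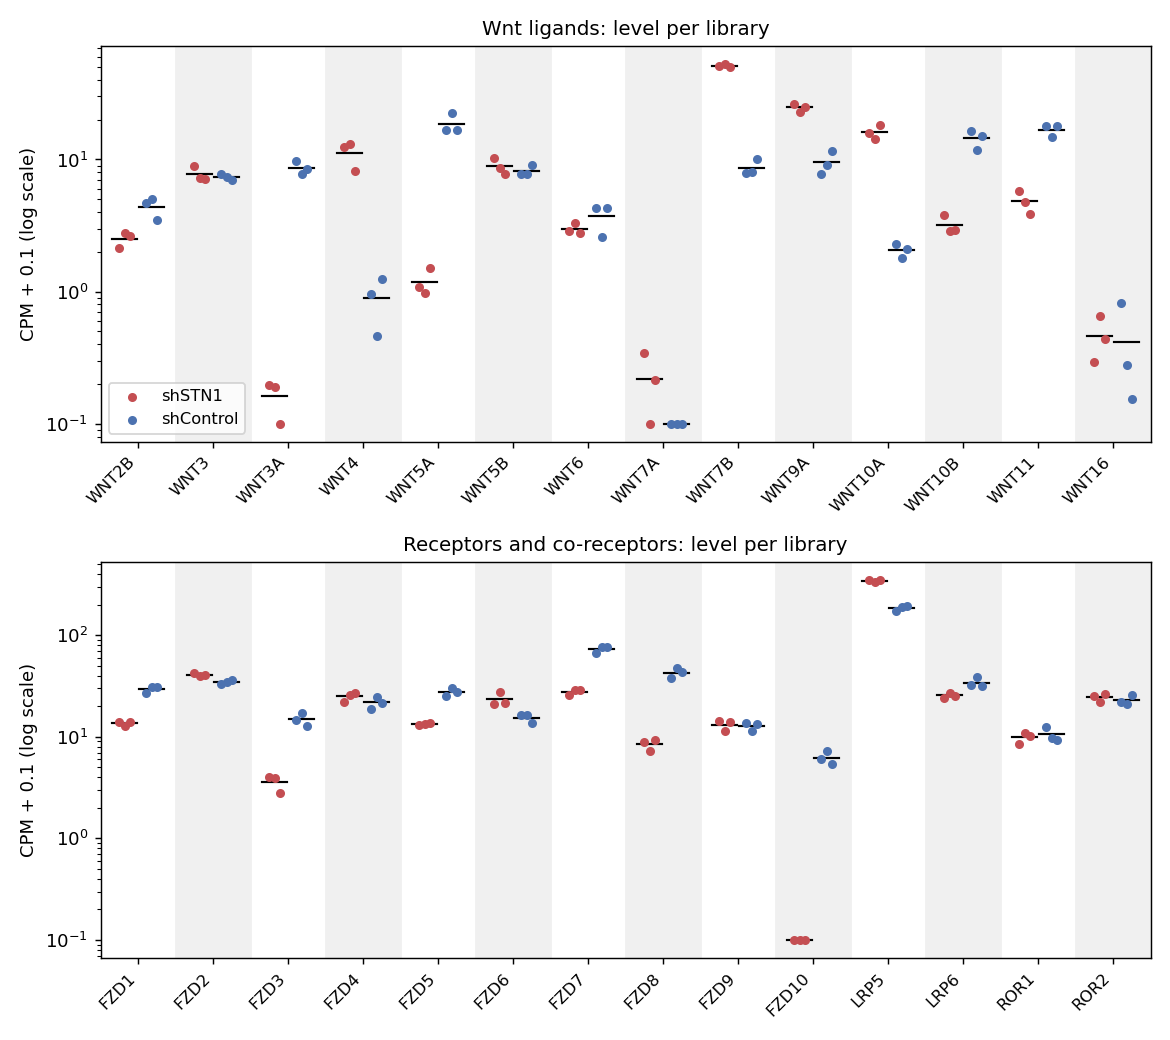
Level of each ligand (top) and each receptor or co-receptor (bottom) per library, as CPM plus 0.1 on a log scale (red shSTN1, left; blue shControl, right; bars group means of 3). WNT3A and FZD10 stand near the bottom in shSTN1 and not in shControl. WNT5A lies at 1.09 CPM in shSTN1 against 18.6 CPM in shControl, and WNT7B at 51.1 CPM in shSTN1 against 8.58 CPM in shControl.

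Per transcript length, the order of the ligands differed between the groups. In TPM (reads per exon length from GENCODE, scaled to a fixed sum within each library), shSTN1 libraries were led by WNT7B at 29.6 ± 1.07, then WNT9A at 18.2 ± 1.11 and WNT10A at 13.8 ± 1.65, none of which overlapped the next. From WNT4 (7.17 TPM) through WNT5B, WNT11, WNT3 and WNT6 (4.96 TPM), each overlapped its neighbour in the order. The shControl libraries were led by WNT11 at 26.0 ± 2.08 and WNT10B at 20.3 ± 2.93, without overlap, and from WNT3A (10.9 TPM) down to WNT3 (6.29 TPM) neighbours overlapped. WNT7B took 31.0% ± 1.52 of the summed ligand TPM in shSTN1 libraries and 5.90% ± 0.705 in shControl libraries. WNT11 took 5.99% ± 0.921 in shSTN1 libraries and 24.2% ± 0.446 in shControl libraries. The summed ligand level itself was 95.4 ± 3.39 TPM in shSTN1 and 108 ± 6.89 TPM in shControl. TPM put shSTN1 lower against shControl than TMM-scaled CPM do. WNT3, for example, was at 5.16 TPM in shSTN1 and 6.29 TPM in shControl, but at 7.65 and 7.29 CPM. The direction of the summed ligand level therefore depends on the scaling and is not resolved.

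**Figure D3:**
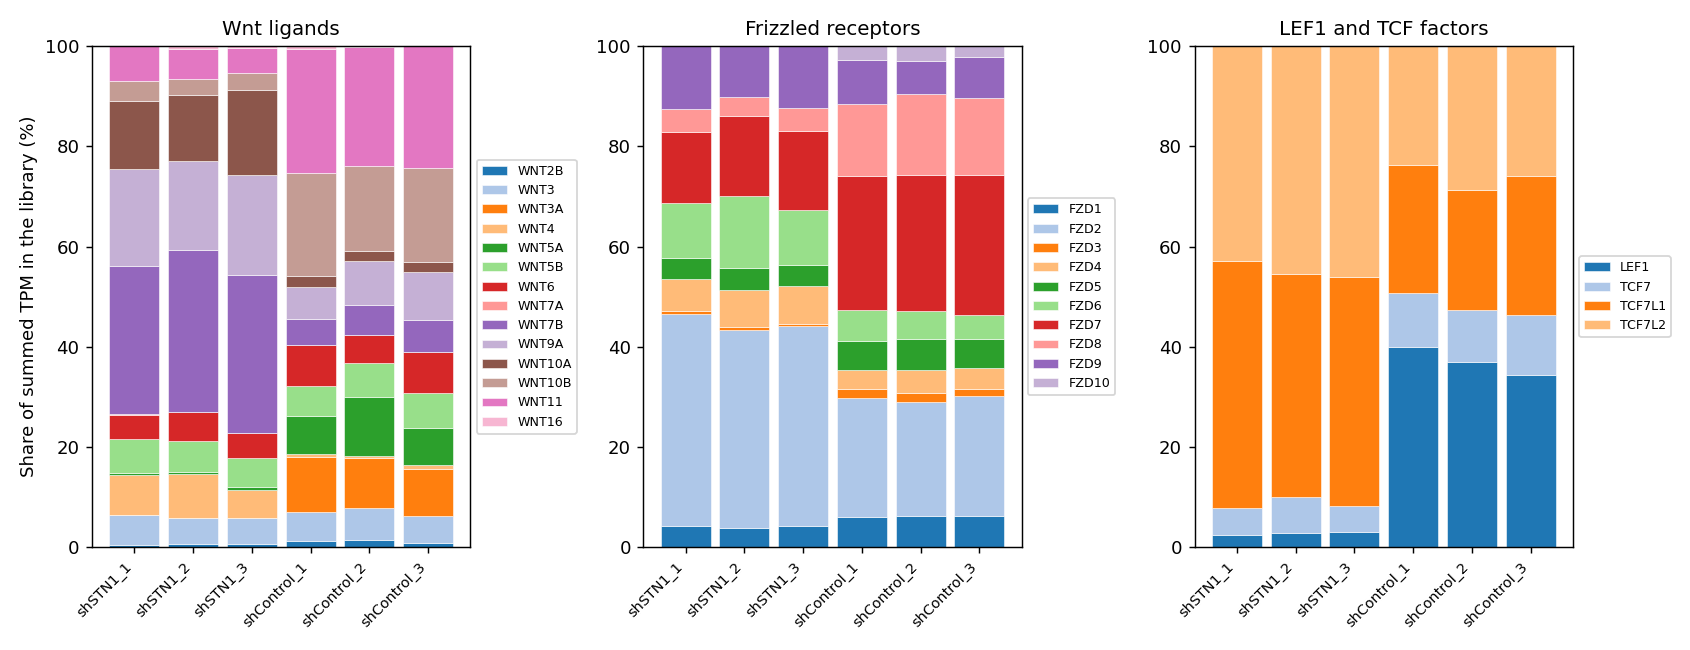
Share of the summed TPM of ligands (left), Frizzled receptors (middle) and LEF1 with TCF factors (right) taken by each gene, in percent, with 1 bar per library and shSTN1 libraries left of shControl libraries. The bars of a group look alike, and WNT7B, FZD2 and TCF7L1 with TCF7L2 take larger shares in shSTN1, where LEF1 takes 2.78% against 37.1% in shControl.

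Several ligand genes lie in pairs on their chromosomes (GRCh38), and only in the pair of WNT9A and WNT3A were both members called, in opposite directions. WNT9A (chr1:227918656-227947898, minus strand) and WNT3A are read away from each other with 59.2 kb between them, at log2 fold changes of 1.40 and -6.87. WNT6 and WNT10A lie 6.13 kb apart on chromosome 2, at -0.32 (not passing) and 3.02. WNT10B, at -2.19, lies 6.69 kb from WNT1 on chromosome 12. WNT1, also outside the 44 genes, had 1 read over the shSTN1 libraries and 0 over the shControl libraries and was not tested. WNT3, which did not pass, lies 46 bases from WNT9B on chromosome 17. WNT9B, which is outside the 44 genes, had 0 reads in each shSTN1 library and 19, 13 and 9 reads in shControl libraries, which is at least 13.3-fold lower with a floor of 3 reads over the shSTN1 group.

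Among the 14 receptors and co-receptors, 3 were higher in shSTN1, 7 lower and 4 did not pass. The share passing, 71.4%, is near the 74.1% of all genes tested. Every receptor change of at least 2-fold was a fall (42.9% of the receptors, background 19.0%). These falls include FZD10, which passed the low-count filter through the shControl libraries alone, and the share was not taken again without it. Of the 13 receptors above the filter level in both groups, 3 were higher (background 38.2%) and 6 lower (background 36.2%). FZD10 (ENSG00000111432.4, chr12:130162459-130165740, plus strand) had 0 reads in each shSTN1 library, against 123, 161 and 97 reads in shControl libraries. With a floor of 3 reads over the shSTN1 group it was at least 124-fold lower than the shControl level of 6.13 ± 0.990 CPM (edgeR adjusted p = 7.41e-16). FZD8 (ENSG00000177283.7, chr10:35638249-35642278, minus strand) had 8.84, 7.15 and 9.14 CPM in shSTN1 libraries, against 37.8, 47.0 and 43.7 CPM in shControl libraries. It was 5.13-fold lower (log2 fold change -2.36, SE 0.143, adjusted p = 1.56e-18), without overlap.

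FZD3, a Frizzled known from axon guidance and planar polarity, had 3.96, 3.85 and 2.72 CPM in shSTN1 libraries, against 14.7, 17.2 and 12.6 CPM in shControl libraries (log2 fold change -2.07, SE 0.212, adjusted p = 3.13e-13). FZD7, a Frizzled described in stem cells and tumours, had 25.6, 28.7 and 29.0 CPM in shSTN1 libraries, against 67.4, 75.7 and 76.4 CPM in shControl libraries (-1.40, SE 0.0820, adjusted p = 7.27e-16). All shSTN1 libraries of both genes lay well under the lowest shControl library. FZD1 had 13.9, 12.6 and 14.0 CPM in shSTN1 libraries, against 27.2, 31.1 and 30.5 CPM in shControl libraries (-1.13, SE 0.0775, adjusted p = 2.25e-11). FZD5, the Frizzled on which RNF43-mutant pancreatic cancer lines are known to depend, had 13.1, 13.3 and 13.7 CPM in shSTN1 libraries, against 25.1, 30.4 and 27.8 CPM in shControl libraries (-1.05, SE 0.0811, adjusted p = 1.84e-10). Neither overlapped between groups, and the shSTN1 libraries of FZD5 lay close together.

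The co-receptors moved in opposite directions. LRP5 had 349, 334 and 346 CPM in shSTN1 libraries, against 175, 189 and 193 CPM in shControl libraries, a 1.85-fold higher level (log2 fold change 0.89, SE 0.0479, adjusted p = 2.69e-14). LRP6, its close relative, was 1.34-fold lower at 25.4 ± 1.55 CPM in shSTN1 and 34.1 ± 3.98 CPM in shControl (-0.43, SE 0.107, adjusted p = 2.75e-04). FZD6, which is known to act mainly outside the beta-catenin branch, averaged 23.4 ± 3.73 CPM in shSTN1 and 15.4 ± 1.58 CPM in shControl (0.61, SE 0.154, adjusted p = 2.66e-05), without overlap in CPM, but with overlap in TPM, at 14.9, 20.1 and 15.6 TPM in shSTN1 libraries, against 14.6, 15.5 and 12.4 TPM in shControl libraries. FZD2 passed at 40.7 ± 1.42 CPM in shSTN1 and 34.6 ± 1.55 CPM in shControl (0.24, SE 0.0475, adjusted p = 0.0155), but its adjusted p was 0.0881 without shControl library 1 and 0.0525 without shSTN1 library 1, and in TPM, scaled within each library, it was 56.4 in shSTN1 and 61.3 in shControl, the other way round.

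The other 4 receptors did not pass. FZD4, known from retinal vessels, had 22.1, 25.6 and 27.0 CPM in shSTN1 libraries, against 18.9, 24.8 and 21.6 CPM in shControl libraries (0.19, adjusted p = 0.12, interval -0.04 to 0.41), and 18.9% of its exon length is shared with PRSS23 on the other strand. ROR2, a WNT5A receptor, had 25.1, 21.8 and 26.1 CPM in shSTN1 libraries, against 21.8, 20.8 and 25.6 CPM in shControl libraries (0.10, adjusted p = 0.41, interval -0.11 to 0.31). So the ROR receptors gave intervals around 0 while WNT5A was 17.3-fold lower, with ROR1 at 9.84 ± 1.34 CPM in shSTN1 and 10.4 ± 1.77 CPM in shControl (-0.09, adjusted p = 0.593, interval -0.38 to 0.21). FZD9 averaged 13.1 ± 1.61 CPM in shSTN1 and 12.7 ± 1.31 CPM in shControl (0.04, adjusted p = 0.804, interval -0.23 to 0.30).

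Per length, FZD2 led the Frizzled receptors in shSTN1 libraries with 40.6% ± 1.43 of their summed TPM, against 23.6% ± 0.686 in shControl libraries. FZD7 led in shControl libraries, with 15.2% ± 0.961 of the sum in shSTN1 libraries and 27.3% ± 0.649 in shControl libraries. FZD8 took 4.37% ± 0.517 in shSTN1 libraries and 15.3% ± 0.875 in shControl libraries. The summed Frizzled level was 139 ± 2.84 TPM in shSTN1 and 260 ± 19.3 TPM in shControl. The size of this gap depends on the scaling, since TPM put shSTN1 lower against shControl than CPM do. Behind FZD2, the libraries of FZD7, FZD6 and FZD9 overlapped in shSTN1, so their order is not resolved there.

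All 3 secreted antagonists among the 44 genes were higher in shSTN1, as were 35.6% of all genes tested. DKK1 (ENSG00000107984.10, chr10:52314296-52318042, plus strand), which blocks LRP5 and LRP6 and is itself a known beta-catenin target, had 149, 151 and 146 CPM in shSTN1 libraries, against 33.6, 28.7 and 34.9 CPM in shControl libraries. It was 4.60-fold higher (log2 fold change 2.20, SE 0.0875, adjusted p = 3.26e-22), and both groups were tight. SFRP1, which binds Wnt proteins outside the cell, had 41.2, 42.7 and 42.6 CPM in shSTN1 libraries, against 8.09, 8.37 and 7.15 CPM in shControl libraries (2.42, SE 0.0699, adjusted p = 9.72e-20). DKK3, a family member that is not known to bind LRP6 as DKK1 does, had 48.3, 45.4 and 49.0 CPM in shSTN1 libraries, against 26.8, 25.5 and 24.6 CPM in shControl libraries (0.89, SE 0.0490, adjusted p = 1.02e-10). None of the 3 overlapped between groups. DKK1 took 78.7% ± 0.603 of their summed TPM in shSTN1 libraries and 68.5% ± 2.82 in shControl libraries. Of 11 other antagonists, outside the 44 genes, 4 were tested, with 2 higher (background 35.6%) and 2 lower (background 38.5%). SOSTDC1 was among the lower, with 0, 0 and 1 reads in shSTN1 libraries, against 90, 47 and 53 in shControl libraries.

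The 4 nuclear factors split evenly, with LEF1 and TCF7 lower and TCF7L1 and TCF7L2 higher in shSTN1. All 4 passed, as did 74.1% of all genes tested. LEF1 (ENSG00000138795.10, chr4:108047545-108168956, minus strand), a DNA-binding partner of beta-catenin and a known target of it, had 2.44, 2.70 and 2.78 CPM in shSTN1 libraries, against 45.4, 45.6 and 37.4 CPM in shControl libraries. It was 16.2-fold lower (log2 fold change -4.02, SE 0.109, adjusted p = 3.97e-23). TCF7, whose short form lacks the beta-catenin binding part, had 10.5, 12.0 and 9.31 CPM in shSTN1 libraries, against 23.2, 24.3 and 24.5 CPM in shControl libraries (-1.17, SE 0.109, adjusted p = 7.81e-11). Gene counts do not separate its forms.

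TCF7L1, known mostly as a repressor, had 41.3, 33.6 and 35.0 CPM in shSTN1 libraries, against 23.8, 24.2 and 24.7 CPM in shControl libraries (0.60, SE 0.0918, adjusted p = 1.83e-06). TCF7L2, the main TCF of intestinal epithelium, had 55.0, 52.3 and 54.1 CPM in shSTN1 libraries, against 34.0, 44.8 and 35.7 CPM in shControl libraries (0.49, SE 0.124, adjusted p = 1.74e-05). In CPM library 2 of shControl lay nearer to the shSTN1 libraries than the others, without overlap, but in TPM the groups overlapped, with TCF7L2 at 23.6, 22.9 and 23.6 TPM in shSTN1 libraries, against 18.5, 25.5 and 19.7 TPM in shControl libraries. Per length, LEF1 took 2.78% ± 0.330 of the summed level of the 4 factors in shSTN1 libraries and 37.1% ± 2.77 in shControl libraries. TCF7L1 took 46.4% ± 2.43 in shSTN1 libraries and 25.6% ± 1.90 in shControl libraries, and TCF7L2 took 44.8% ± 1.68 in shSTN1 libraries and 26.2% ± 2.53 in shControl libraries. LEF1 was thus the top factor by TPM in shControl (29.9) and the bottom one in shSTN1 (1.44), while the order of TCF7L1 and TCF7L2 was not resolved in either group.

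**Figure D4:**
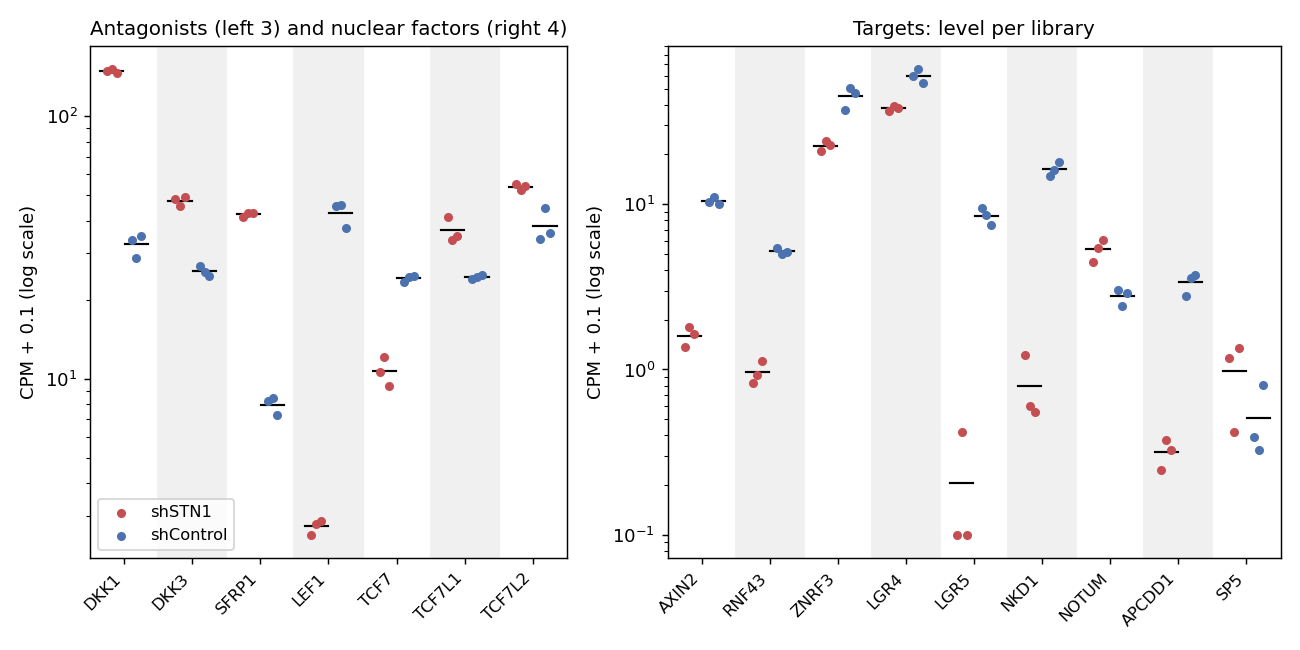
Level per library of the 3 antagonists and 4 nuclear factors (left) and the 9 targets (right), as CPM plus 0.1 on a log scale (red shSTN1, left; blue shControl, right; bars group means of 3). LEF1 and 7 targets lie lower in shSTN1, DKK1, DKK3, SFRP1, TCF7L1, TCF7L2 and NOTUM lie higher, and SP5 overlaps.

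Of the 9 targets and feedback genes, 7 were lower in shSTN1 (background 38.5%) and 2 higher (background 35.6%). Only 5 of the 9 were above the low-count filter level in both groups, and among these 4 were lower and 1 higher. Of all genes above that level in both groups, 36.2% were lower and 38.2% higher. AXIN2 (ENSG00000168646.13, chr17:65528563-65561647, minus strand), a scaffold of the degradation complex and the most used readout of beta-catenin activity, had 1.27, 1.70 and 1.53 CPM in shSTN1 libraries, against 10.2, 10.9 and 9.92 CPM in shControl libraries. It was 6.85-fold lower (log2 fold change -2.78, SE 0.121, adjusted p = 7.67e-15). NKD1, an inhibitor that binds Dishevelled, had 1.12, 0.504 and 0.454 CPM in shSTN1 libraries, against 14.7, 15.9 and 17.9 CPM in shControl libraries (-4.52, SE 0.372, adjusted p = 8.94e-19). The lowest shControl library of each was several times above the highest shSTN1 library.

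LGR5, a receptor for R-spondins and a stem cell marker in the intestine, had 0, 7 and 0 reads in shSTN1 libraries, against 196, 189 and 137 reads in shControl libraries (0.107 ± 0.185 and 8.44 ± 1.00 CPM, adjusted p = 8.83e-16). All shSTN1 reads of LGR5 came from library 2, so its fitted log2 fold change of -6.11 (SE 0.702) rests on that library, and without it the shSTN1 group had 0 reads and the fitted value was -10.40, which is no bound. LGR4, its more widely expressed relative, had 36.4, 39.1 and 38.3 CPM in shSTN1 libraries, against 59.8, 65.4 and 54.1 CPM in shControl libraries (-0.66, SE 0.0844, adjusted p = 3.25e-08). LGR4 held the top TPM among the targets in both groups, at 17.5 in shSTN1 and 35.3 in shControl.

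The ligases that remove Frizzled receptors from the surface were both lower. RNF43 had 0.733, 0.825 and 1.02 CPM in shSTN1 libraries, against 5.34, 4.92 and 5.04 CPM in shControl libraries (-2.57, SE 0.131, adjusted p = 4.38e-11). ZNRF3 had 21.0, 23.9 and 22.6 CPM in shSTN1 libraries, against 36.8, 50.2 and 47.2 CPM in shControl libraries (-0.99, SE 0.146, adjusted p = 3.43e-10). Neither overlapped between groups. APCDD1, a membrane-bound inhibitor of the pathway, averaged 0.216 ± 0.0649 CPM in shSTN1 and 3.27 ± 0.504 CPM in shControl (-3.88, SE 0.221, adjusted p = 4.46e-11).

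Against the other targets, NOTUM, an enzyme that strips the lipid from Wnt proteins, was 1.94-fold higher, with 4.35, 5.36 and 6.01 CPM in shSTN1 libraries, against 2.94, 2.33 and 2.82 CPM in shControl libraries (log2 fold change 0.96, SE 0.167, adjusted p = 7.30e-05). SP5, a transcription factor induced by beta-catenin, was at the edge of detection with 1.07, 0.321 and 1.25 CPM in shSTN1 libraries, against 0.289, 0.224 and 0.704 CPM in shControl libraries. Its groups overlapped, and its call (1.12, SE 0.666, adjusted p = 0.0484) was lost in DESeq2 (0.195), in limma-voom (0.0922), without shSTN1 library 1 (0.167) or 3 (0.219), and without shControl library 1 (0.169) or 2 (0.215), while its log2 fold change was 1.72 without shControl library 3.

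The strand setting of the counting is not given in the sources used here, and 14 of the 44 genes share exon bases with another gene, 12 of them with a gene on the other strand. The overlap took 57.6% of RNF43 exon length with AC004687.2, which had at most 7 reads in any library, 21.2% of WNT2B with ST7L, 25.2% of AXIN2 with AC004805.1 and 9.61% of DKK1 with PRKG1-AS1. Reads in such stretches can be split or lost, and the values of these genes are uncertain to that extent. PRSS23, the partner of FZD4, had 12259 to 14991 reads in shSTN1 libraries and 2578 to 3262 in shControl libraries, against at most 558 for FZD4. ST7L had 251 to 303 reads per library, against 42 to 109 for WNT2B. What these partners did to the counts was not tested.

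Of 74 other genes of the pathway, from a list of ligands, secretion factors, receptors, transducers and polarity genes, 63 were tested and 53 passed (84.1%, beside the background of 74.1%), with 19 higher (background 35.6%) and 34 lower (background 38.5%) in shSTN1. Of the 53 above the filter level in both groups, 17 were higher (background 38.2%) and 28 lower (background 36.2%). Their median log2 fold change was -0.36. Both genes of ligand export were lower. WLS, the carrier that takes Wnt proteins to the cell surface, had 25.7, 26.4 and 26.7 CPM in shSTN1 libraries, against 138, 131 and 140 CPM in shControl libraries (-2.38, adjusted p = 1.79e-23). PORCN, the enzyme that attaches the lipid, averaged 13.1 ± 0.749 CPM in shSTN1 and 16.8 ± 1.12 CPM in shControl (-0.36, adjusted p = 0.00652). Among the 4 other receptors, RYK was higher at 131 ± 5.85 CPM in shSTN1 and 71.0 ± 3.83 CPM in shControl (0.89, adjusted p = 5.12e-13) and LRP4 lower at 18.8 ± 1.08 CPM in shSTN1 and 35.3 ± 3.08 CPM in shControl (-0.91, adjusted p = 8.88e-10). The DKK1 partners KREMEN1 and KREMEN2 moved apart, KREMEN1 to 12.0 ± 1.16 CPM in shSTN1 against 75.7 ± 7.14 CPM in shControl (-2.66, adjusted p = 1.17e-21) and KREMEN2 to 52.6 ± 2.87 CPM in shSTN1 against 26.8 ± 3.52 CPM in shControl (0.98, adjusted p = 5.31e-11).

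Beta-catenin mRNA (CTNNB1), whose protein is mainly controlled by degradation, had 268, 302 and 279 CPM in shSTN1 libraries, against 381, 354 and 376 CPM in shControl libraries (-0.39, adjusted p = 2.03e-06). In the degradation complex list, which includes CTNNB1, 2 of 9 genes were higher and 5 lower. The share passing, 77.8%, is near the background of 74.1%. APC fell to 14.2 ± 1.67 CPM in shSTN1, against 30.4 ± 2.86 CPM in shControl (-1.10, adjusted p = 1.28e-10), while its relative APC2 was at 60.8 ± 3.22 CPM in shSTN1 and 25.0 ± 1.52 CPM in shControl (1.28, adjusted p = 1.10e-14). GSK3B, a kinase of the complex, averaged 31.2 ± 1.81 CPM in shSTN1 and 49.4 ± 4.16 CPM in shControl (-0.66, adjusted p = 6.51e-08). AXIN1 did not pass, at 114 ± 4.86 CPM in shSTN1 and 104 ± 3.48 CPM in shControl (0.13, adjusted p = 0.086). FBXW11, a ubiquitin ligase subunit that recognises beta-catenin, was higher at 160 ± 9.51 CPM in shSTN1 and 56.1 ± 4.50 CPM in shControl (1.51, adjusted p = 1.87e-18).

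The 13 cytoplasmic transducers all passed (background 74.1%), 6 higher and 7 lower, with the Dishevelled-binding DACT genes at both ends. DACT1 was not above the filter level in both groups. DACT2 averaged 54.3 ± 2.50 CPM in shSTN1 and 6.09 ± 0.827 CPM in shControl (3.15, adjusted p = 2.39e-22). DACT1 averaged 0.191 ± 0.127 CPM in shSTN1 and 9.97 ± 1.19 CPM in shControl (-5.71, adjusted p = 1.08e-17), and DACT3 was lower as well (-2.20, adjusted p = 3.24e-14). Among 15 nuclear cofactors, 5 were higher and 6 lower (73.3% passing, near the background of 74.1%). The corepressor TLE4 had 2.39, 2.47 and 1.87 CPM in shSTN1 libraries, against 81.9, 83.4 and 74.2 CPM in shControl libraries (-5.14, adjusted p = 6.17e-27). TLE1 averaged 33.8 ± 0.766 CPM in shSTN1 and 117 ± 7.19 CPM in shControl (-1.79, adjusted p = 5.12e-20), and the coactivator BCL9L averaged 289 ± 9.50 CPM in shSTN1 and 86.5 ± 8.09 CPM in shControl (1.74, adjusted p = 6.86e-21).

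Of 11 planar polarity genes, 9 were lower in shSTN1 (background 38.5%) and 1 higher (background 35.6%). DAAM2 and PRICKLE2 were not above the filter level in both groups. Of the 9 genes that were, 7 were lower (36.2% of all genes above that level) and 1 higher (38.2%). VANGL2, a core membrane protein of this branch, averaged 1.22 ± 0.110 CPM in shSTN1 and 54.8 ± 3.02 CPM in shControl (-5.48, adjusted p = 3.53e-26). CELSR2, a cadherin of the same branch, averaged 9.57 ± 0.958 CPM in shSTN1 and 91.9 ± 9.08 CPM in shControl (-3.27, adjusted p = 6.08e-24). DAAM2, a formin that links Dishevelled to actin, had 1, 0 and 3 reads in shSTN1 libraries, against 695, 881 and 680 reads in shControl libraries (adjusted p = 1.05e-24). Its fitted log2 fold change of -8.97 was -10.26 without shSTN1 library 3 and -8.35 without library 2, since 4 reads carry the shSTN1 level.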

How the data were processed

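Bulk RNA-seq of cells labelled PANC-1 was compared between 3 shSTN1 and 3 shControl libraries. The deposited table holds raw read counts for each Ensembl gene. The submitters' processing notes name STAR 2.7.2b, featureCounts 2.0.1, cutadapt and FastQC, with GRCh38. Which annotation and strand setting served the counting is not given in the sources used here. The table had 60668 rows, and 45 second copies of pseudoautosomal genes were left out. No column was left out.

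Counts were fitted with edgeR 4.0.16 (R 4.3.3): filterByExpr, TMM factors, robust quasi-likelihood test, no covariates, Benjamini-Hochberg adjustment over 17451 genes, threshold 0.05. CPM use TMM-scaled library sizes. SEs are of the difference of group means of log2 CPM (prior count 2), not from edgeR, and intervals are from limma-voom (limma 3.58.1). TPM use exon-union lengths from GENCODE 29, to which 58516 rows matched. A group at 0 was bounded with 3 reads over the group. Bounds cover counting error only. Libraries of a group differed beyond sampling noise, with chi-square over its degrees of freedom between 3.00 and 8.81. The fit was tested on simulated data with 50 genes changed at each fold tried. In these data 74.1% of genes tested were called, so the simulation does not check the scaling factors where most genes differ.

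The 44 genes, the 74 other pathway genes and the markers were chosen with earlier results of these data known. By rule, values per library were given for up to 6 genes a role past the threshold, ranked by size of change where the higher group reached 5 CPM, and for up to 2 not past it. Other pathway genes were named up to 3 a group by the same measure, besides CTNNB1, APC, AXIN1 and GSK3B. SOSTDC1 and the reads of PRSS23 and ST7L were added outside this measure, after their values were seen. Outside this rule, values per library of WNT11, WNT9A, LRP5, FZD6, LGR4, SP5, WNT7A and WNT16, and the values of WNT9B, WNT1, IRS4, SIX2, PAX2, OSR1, WT1, LHX1 and CDKN2A, were chosen after their values were seen. Alternatives were RLE and upper-quartile factors, 2 other filters, DESeq2 1.42.0, limma-voom, adjusted p under 0.01, glmTreat, a replicate block and leaving out each library.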

Additional observations from a re-analysis of the deposited data

How the results depend on the processing

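Of the 42 Wnt genes tested, 29 kept their direction and their call under every alternative run and 13 did not in at least 1, FZD2 and SP5 among them. The number of the 44 passing was 35 with RLE factors, 34 with upper-quartile factors, 33 without a filter, 34 with 1 CPM in 3 libraries, 33 with DESeq2, 34 with limma-voom and 33 when the threshold was 0.01. Leaving out each library gave 33 to 36 (12 to 14 higher, 21 to 22 lower), 12586 to 12857 for all genes past the threshold and 52 to 54 other pathway genes. Against a fold of 1.5 (glmTreat), 27 Wnt genes passed, 9 of them higher, with 32 other pathway genes (11 higher, 21 lower) and 7306 for all genes past the threshold, fewer by the construction of that test. FZD6, LGR4, LRP6, TCF7L1, TCF7L2 and WNT2B lost their call there and in no other alternative. The count of all genes past the threshold, higher in shSTN1, was then 3351, and that of all genes past the threshold, lower in shSTN1, was 3955. Without genes under the filter level in either group, an alternative chosen after seeing the data, 28 of the Wnt genes and 45 other pathway genes passed, with 10626 for all genes past the threshold.

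FZD2 had an adjusted p of 0.0657 without a filter and 0.0509 in DESeq2. SP5 had 0.0535 with upper-quartile factors and 0.0758 without a filter. FZD4 passed without shSTN1 library 1 (0.0408) or shControl library 2 (0.0301), and WNT6 without shControl library 2 (0.0304). Among genes that did not pass, the sign turned on leaving out a library for FZD9 (-0.06 to 0.14), ROR1 (-0.18 to 0.05) and WNT3 (-0.04 to 0.14). STN1 ran from -0.22 to -0.06. The cause was not tested in these cases.

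Libraries with the same replicate number did not deviate together (correlations -0.0123, 0.0171 and -0.0337). These values gave no sign of pairing by number, but they cannot exclude it, since counting noise may hide a shared deviation. With the replicate block, 34 Wnt genes and 53 other pathway genes passed, with 12742 for all genes past the threshold. SP5 had an adjusted p of 0.0562 and STN1 stayed at -0.15. Genes with a few reads in shSTN1, such as WNT3A and LGR5, are limited by depth in how far they fell.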
